A study of Homo sapiens with 7 samples.

Results

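The 4 HOX clusters of the human genome were examined for MYCN binding in Kelly cells, an established line derived from a human neuroblastoma. In this line the MYCN gene is amplified and ALK, a receptor tyrosine kinase, carries an activating mutation. A site was taken as a summit, the point inside a called interval where the ChIP signal peaks, that fell in 1 of 4 windows on build hg19. The windows were chr7:27120001-27300000 for HOXA, chr17:46596001-46816000 for HOXB, chr12:54322001-54460000 for HOXC and chr2:176944001-177066000 for HOXD. Of the 64657 summits in the deposited list, 78 (0.121%) met this rule, in 56 intervals. The 4 windows, 660 kb in all, stand for 38 HOX genes, 10 each in HOXA and HOXB and 9 each in HOXC and HOXD. Each window was set against the 200 kb on either side of it, 1600 kb of flank in all, which held 40 summits.

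Binding was read by ChIP-seq, in which DNA fragments recovered with a MYCN antibody are sequenced and set against input, the sheared chromatin before antibody selection. Cells labelled as sensitive to the ALK inhibitor TAE684 had received the vehicle DMSO for 48 h, and cells labelled as resistant had received TAE684 at 1 µM for 48 h. The sensitive cells are represented by 2 MYCN ChIP samples and 1 input, and the resistant cells by 2 of each kind, all from the same line, and name no separate clone or culture for a sample. The list named for the resistant cells was byte for byte that of the sensitive cells, and its 64657 peak names all carried the sensitive name. Every value below therefore refers to the sensitive, DMSO-treated cells, and MYCN sites of resistant cells were not analysed here. Both sensitive ChIP samples share 1 list, so no value has a replicate error. The intervals given cover counting error only, treat neighbouring summits as independent, which they may not be, and carry no test between conditions.

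HOX genes encode homeodomain transcription factors that set position along the body axis. They lie in 4 clusters, and within a cluster the genes are ordered by paralogous group, from the anterior genes of low number to the posterior genes of group 13. In the RefSeq gene table the HOXD cluster runs from HOXD13 through HOXD12, HOXD11, HOXD10, HOXD9, HOXD8, HOXD4 and HOXD3 to HOXD1, with the group 13 gene at the low coordinate. HOXC has the same orientation, from HOXC13 to HOXC4, whereas in HOXA (HOXA13 to HOXA2) and HOXB (HOXB13 to HOXB1) group 13 lies at the high coordinate. MYCN is a basic helix-loop-helix factor that binds DNA together with MAX. The preferred site of MYC and MAX dimers is the E-box CACGTG, a palindrome that reads the same on both strands.

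The gene and promoter tables used here are on build GRCh38, so single summits were not assigned to genes, and the GRCh38 positions in the next paragraph cannot be compared with the hg19 positions of the summits. The promoter windows are given to show which HOX genes have the preferred MYC and MAX motif near their start. Of the 38 HOX genes, 20 had a RefSeq promoter window (250 bases before to 50 bases after the start), 9 in HOXA, 1 in HOXB, 2 in HOXC and 8 in HOXD, with 26 distinct windows among them. CACGTG was found in 9 of these 26 windows (34.6%, exact binomial 95% CI 17.2 to 55.7), against 7.23% of all 34943 promoter windows in the table. Windows of 1 gene are not independent, and HOXA3 alone had 7. Counted per gene, 9 of 20 HOX genes had the motif in at least 1 window (45%, 95% CI 23.1 to 68.5), against 8.77% of the 27305 genes in the table. The looser motif CANNTG, which includes CACGTG, was found in 19 of the 26 windows (73.1%, 95% CI 52.2 to 88.4) and in 68.7% of all windows. The median GC content was 58.0% in the HOX windows and 58.7% in all windows.

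The motif was found for 5 of the 8 HOXD genes (62.5%, 95% CI 24.5 to 91.5) and for 4 of the 9 HOXA genes (44.4%, 95% CI 13.7 to 78.8). It was absent from the 1 HOXB window (HOXB1) and from the 1 HOXC window, which HOXC4 and HOXC5 share. HOXD13, HOXD11, HOXD10, HOXD3 and HOXD1 had it, and HOXD12, HOXD8 and HOXD4 did not. In HOXA it was in the windows of HOXA9, HOXA7 and HOXA4 and in 1 of the 7 windows of HOXA3. The windows of HOXA2, HOXA6, HOXA10, HOXA11 and HOXA13 did not hold it. Distances here and below are counted from the first base of the motif. The nearest to a gene's start lay 5 bases before that of HOXA7 and the farthest 200 bases before that of HOXA4. These counts describe letters in the promoter windows and do not show a bound site. The stretches are printed 5′ to 3′ on the strand of the gene, 30 bases each, with CACGTG in capitals (RefSeq, GRCh38.p14).
HOXD13, chr2:176092578-176092607, plus strand, motif 131 bases before the start: cgttcctaccccCACGTGgccgcgcgcagc
HOXD11, chr2:176107178-176107207, plus strand, 90 bases before the start: tcttcatggcgtCACGTGacataattacca
HOXD10, chr2:176116660-176116689, plus strand, 106 bases before the start: caggctctggagCACGTGacccgagaggag
HOXD3, chr2:176157248-176157277, plus strand, 47 bases before the start: acaagtcccgacCACGTGattggcgaaata
HOXD1, chr2:176188603-176188632, plus strand, 53 bases before the start: gccggccagcgcCACGTGgccgcccccgcc
HOXA9, chr7:27165591-27165620, minus strand, 71 bases before the start: ctgctggacgggCACGTGacgcgcacggcc
HOXA7, chr7:27156663-27156692, minus strand, 5 bases before the start: catgtgggcggtCACGTGctgcggcgagct
HOXA4, chr7:27130940-27130969, minus strand, 200 bases before the start: gtgggggcgctgCACGTGgggcacggggcg
HOXA3, chr7:27118391-27118420, minus strand, 51 bases before the start: ttgacgtatgacCACGTGagcacataatac

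MYCN summits were unevenly spread over the clusters. The HOXD window held 38 summits in 20 intervals, HOXC held 24 in 21, HOXA held 9 in 8 and HOXB held 7 in 7. Per 10 kb this gave 3.11 summits in HOXD (exact Poisson 95% CI 2.204 to 4.28), 1.74 in HOXC (1.11 to 2.59), 0.50 in HOXA (0.229 to 0.949) and 0.318 in HOXB (0.128 to 0.656). Over chromosomes 1 to 22 and X the list held 0.213 summits per 10 kb. HOXD and HOXC were thus the dense clusters and HOXA and HOXB the sparse ones.

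**Figure D1:**
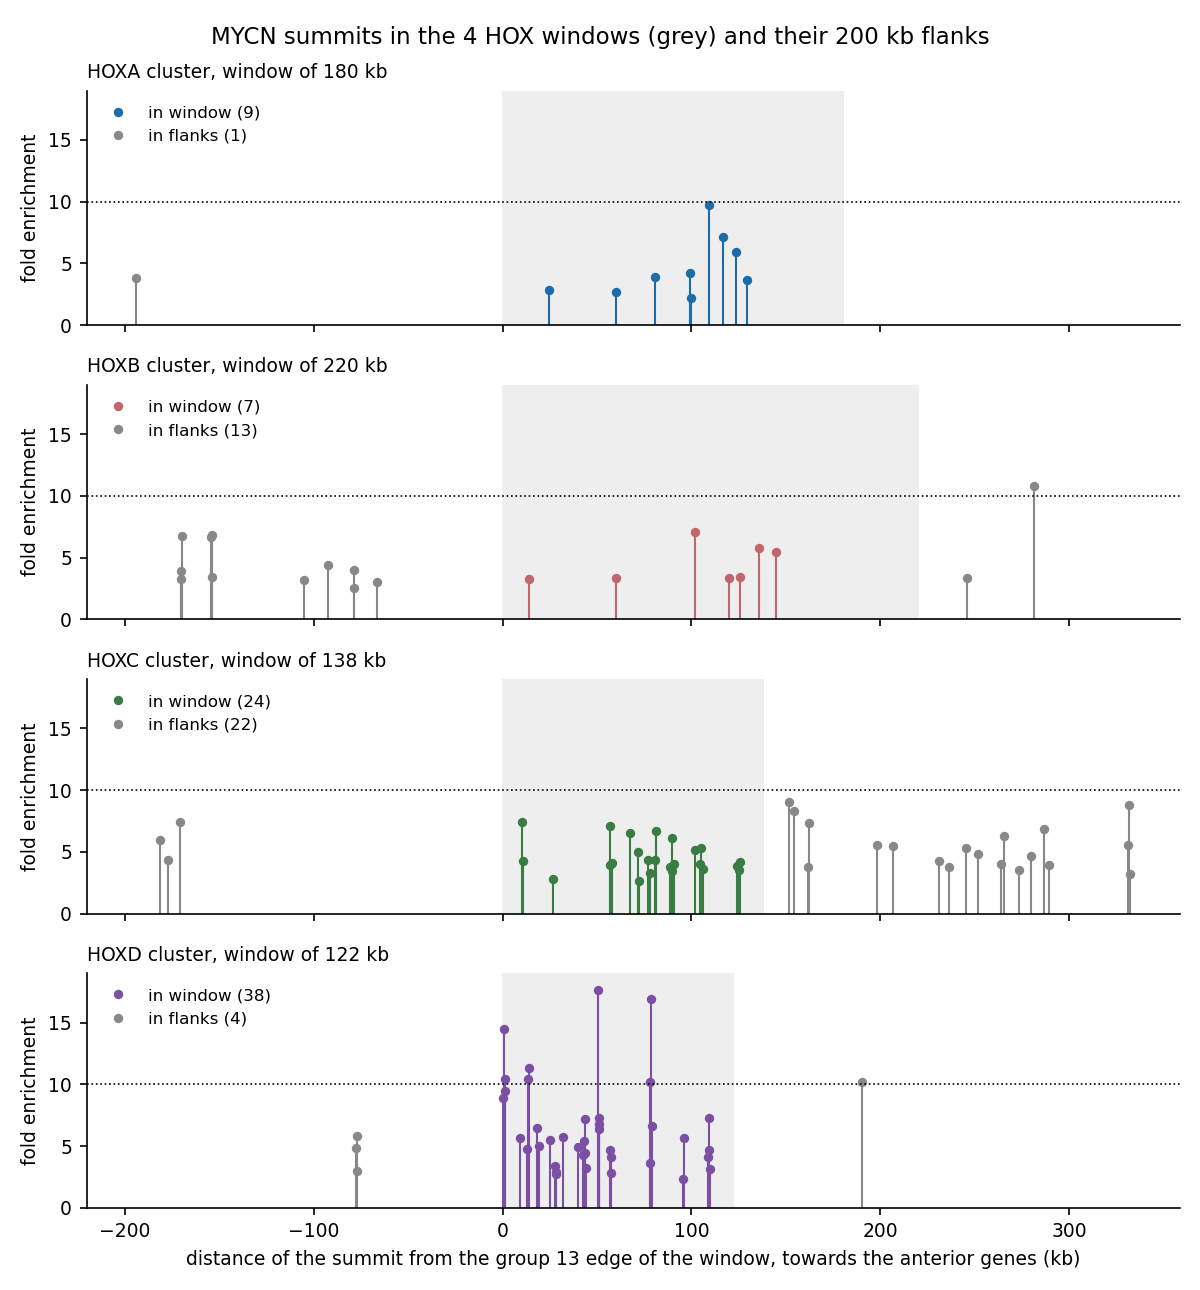
Each stem is 1 MYCN summit, placed by its distance in kb from the group 13 edge of its HOX window (horizontal axis) with its deposited fold enrichment as height; grey areas are the windows, grey stems the flanks, and the dotted line marks 10-fold. The 38 HOXD summits reach 17.6-fold, whereas no HOXA, HOXB or HOXC summit reaches the dotted line.

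Pairs of clusters were compared by the ratio of their summit densities, 6 ratios in all. HOXD was denser than HOXA by 6.23 times (95% CI 2.96 to 14.7) and than HOXB by 9.79 times (4.32 to 25.98). With 1 count per interval these ratios were 3.69 (1.56 to 9.68) and 5.15 (2.09 to 14.4). Among summits of at least 5-fold, HOXD over HOXA was 10.3 (3.08 to 54.1), and among those with a −log10 q-value of at least 10 it was also 10.3 (3.61 to 40.5). HOXC was denser than HOXA by 3.48 times (1.56 to 8.50) and than HOXB by 5.47 times (2.29 to 15.02). Among summits of at least 5-fold, the interval of HOXC over HOXA included 1 (0.835 to 20.4). HOXA and HOXB were not told apart, with a ratio of 1.57 (0.521 to 4.97). The ratio of HOXD to HOXC was 1.79 (1.05 to 3.12), and it depended on the unit and the threshold. With 1 count per interval it was 1.08 (0.554 to 2.09). Among summits with a −log10 q-value of at least 10 it was 2.11 (1.09 to 4.25), and among those of at least 5-fold it was 2.97 (1.26 to 7.75). HOXD and HOXC thus had similar numbers of intervals per kb, and the HOXD intervals held more summits each.

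HOXA and HOXD were denser than their sparsely filled flanks, HOXC had a dense flank on 1 side, and HOXB was not told apart from its flanks. The HOXD density was 31.1 times that of its flanks (95% CI 11.2 to 120), which held 4 summits. With flanks of 100 kb, which held the same number, it was 15.6 (5.61 to 60.1), and against the anterior flank with its 1 summit it was 62.3 (10.5 to 2525). The HOXA ratio was 20, but its flanks held 1 summit and the interval ran from 2.77 to 877. The HOXC ratio was 3.16 (1.70 to 5.91), with 3 summits in the flank at the group 13 end and 19 in the flank at the anterior end. Against the group 13 flank alone it was 11.6 (3.52 to 60.2), and against the anterior flank alone it was 1.83 (0.961 to 3.53), an interval that includes 1. Among summits of at least 5-fold, 8 in the window and 12 in the flanks, the HOXC ratio was 1.93 (0.685 to 5.14) and again not told apart from 1. The HOXB ratio was 0.979 (0.331 to 2.64), with 11 summits in the flank at the group 13 end and 2 in the other. Against the anterior flank alone it was 3.18 (0.606 to 31.4), and against the group 13 flank alone 0.579 (0.190 to 1.63).

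Over the 4 windows together the ratio to the flanks was 4.73 (95% CI 3.19 to 7.10). It was 2.48 (1.54 to 4.001) without HOXD and 7.17 (4.55 to 11.6) without HOXB, so a single value does not describe the 4 clusters. Against the rest of its own chromosome, the HOXD window was 16.7 times as dense (11.8 to 22.97), HOXC 7.39 times (4.73 to 11.01) and HOXA 2.34 times (1.07 to 4.45). For HOXB, on a chromosome with 0.476 summits per 10 kb, the ratio was 0.668 (0.269 to 1.38). The intervals covered 10.2% of the HOXD window (12418 bp), 4.63% of HOXC, 1.12% of HOXA and 0.668% of HOXB, against 0.647% of chromosomes 1 to 22 and X.

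**Figure D2:**
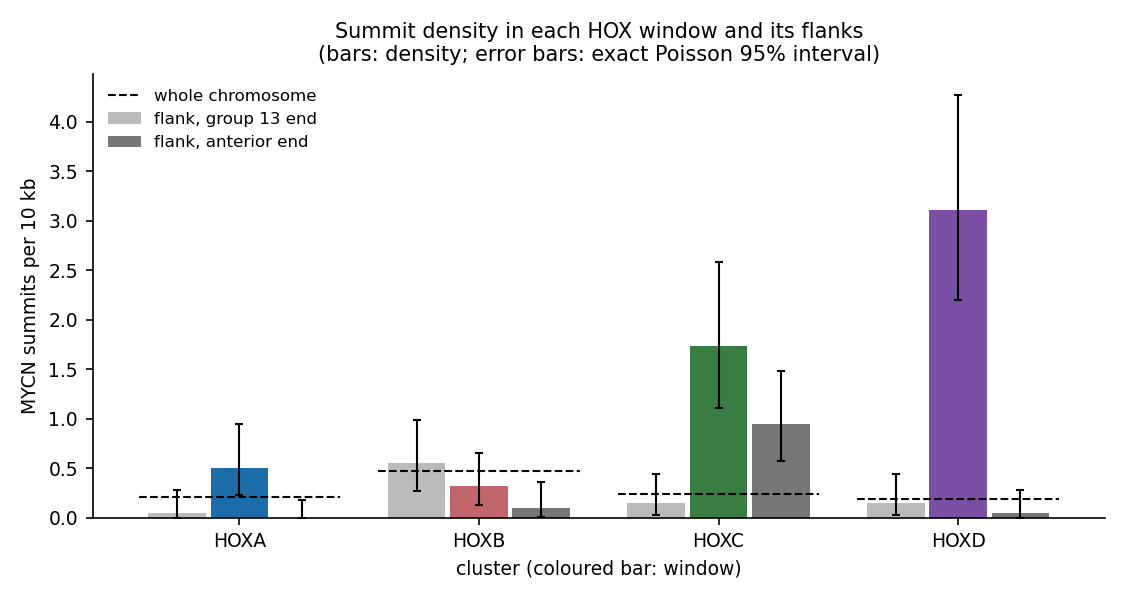
Bars give MYCN summits per 10 kb in each HOX window (coloured) and in its 200 kb flanks at the group 13 end (light grey) and the anterior end (dark grey), with exact Poisson 95% intervals; dashed lines give the whole chromosome. HOXD reaches 3.11 and HOXC 1.74, and the HOXB bar of 0.318 lies below its chromosome's 0.476.

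As a description of how rare such densities were, chromosomes 1 to 22 and X were divided into consecutive tiles as long as each window. At least 38 summits were found in 8 of 24884 tiles of the HOXD length (0.0321%), and at least 24 in 130 of 21998 tiles of the HOXC length (0.591%). Counted by interval, 41 of 24884 tiles (0.165%) held the 20 intervals of HOXD or more, and 36 of 21998 (0.164%) the 21 of HOXC or more. Tiles at or above the HOXA count made up 14.0% and at or above the HOXB count 26.04%. The tiles include sequence to which reads cannot be mapped.

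HOXD also held the strongest sites. Fold enrichment, deposited by the authors for each summit, is the ratio of the ChIP signal to the local background. It had a median of 5.59 in HOXD (95% CI from order statistics 4.67 to 6.76), 4.17 in HOXC (3.75 to 5.14), 3.86 in HOXA (2.68 to 7.10) and 3.41 in HOXB (3.29 to 7.09), against 5.35 in the whole list. The HOXC interval ended below the list's median, while those of the other windows included it. The values spanned 2.36 to 17.6 in HOXD, 2.66 to 7.45 in HOXC, 2.21 to 9.74 in HOXA and 3.29 to 7.09 in HOXB.

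A fold enrichment of 10 or more was found at 7 of the 38 HOXD summits (18.4%, exact binomial 95% CI 7.74 to 34.3), against 12.0% of the whole list. None of the 24 HOXC, 9 HOXA or 7 HOXB summits reached 10, which allows shares of up to 14.2%, 33.6% and 41.0%. The HOXD share thus included the background share in its interval, as did those of the other windows. In the HOXD flanks the median was 5.31 (4 summits), in the HOXC flanks 5.39 (22), in the HOXB flanks 3.88 (13), and the HOXA flank summit had 3.81. The HOXC flanks thus had fewer summits per 10 kb than the HOXC window (0.55 against 1.74), with a higher median fold (5.39 against 4.17). The intervals of these medians overlapped (95% CI 4.05 to 6.82 in the flanks and 3.75 to 5.14 in the window).

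**Figure D3:**
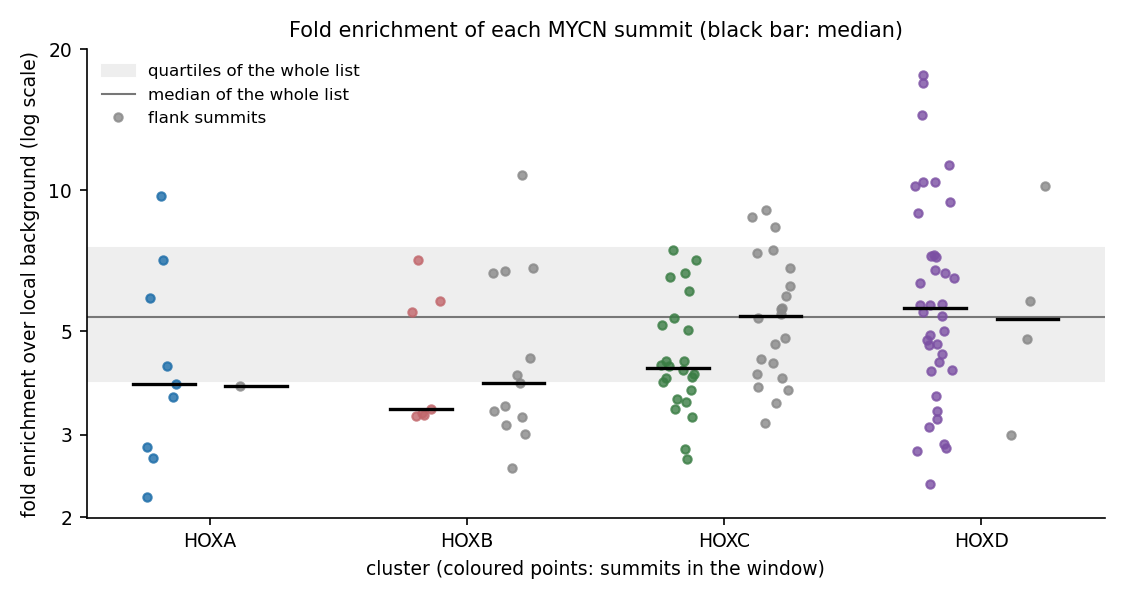
Points are the deposited fold enrichments (log axis) of single MYCN summits in each HOX window (coloured) and in its flanks (grey), with black bars at the medians; the grey band and line are the quartiles and the median (5.35) of the whole list. HOXD spans 2.36 to 17.6, and most HOXC points lie below the line, with a median of 4.17.

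The HOXD summits were gathered in wide intervals with several summits each. Intervals with 3 or more summits made up 6 of 20 in HOXD (30%), against 7.80% of all 47765 intervals in the list, and there was none in the other 3 windows. In the flanks of HOXB such intervals made up 2 of 8 (25%), both at the group 13 end, and the flanks of the other clusters held none. These 6 intervals held 21 of the 38 HOXD summits (55.3%), whereas such intervals held 20.2% of the summits of the list. Their highest fold had a median of 12.9, against 8.18 for such intervals in the list. The 11 HOXD intervals with 1 summit had a median fold of 4.999 and none above 6.67, against a median of 5.40 in the list. The 7 HOXD summits at 10-fold or more were therefore all in intervals of several summits. In width, 5 of the 20 HOXD intervals reached 1000 bp (25%), against 6.83% of the list and none in the other windows. The median interval was 417.5 bp wide in HOXD, 257.5 bp in HOXA, 235 bp in HOXC and 210 bp in HOXB, against 279 bp in the list.

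The strongest HOX site was in the middle of the HOXD cluster. Its summit at position 176994402 of chromosome 2, 50.4 kb from the group 13 edge of the window, reached 17.6-fold (−log10 q-value 124.9), with 226 ChIP fragments over a local input background of 7.28 fragments. ChIP fragments are given before scaling to the input, so fragments divided by background do not equal the fold. It ranked 872 of 64657 by fold. Its interval, chr2:176994038-176995564 (1527 bp), held 3 more summits at 6.35 to 7.26. The summit at 177022540, on the anterior side, followed with a fold of 17.0 and a −log10 q-value of 102.1, from 184 fragments over a background of 6.02. It lay in chr2:177021694-177022738 (1045 bp), which held a second summit above 10, at 177021871 with 10.2, and 1 more at 3.63. That interval directly bordered the longest stretch of HOXD without an interval, chr2:177001647-177021693 (20.05 kb).

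The widest HOXD interval lay at the group 13 end of the window. It was chr2:176944058-176945662 (1605 bp), and its 4 summits had folds of 8.92, 14.5, 10.4 and 9.45. The summit at 176944759 had the highest of these, with 202 fragments over a background of 8 and a −log10 q-value of 101.4. This interval began 0.057 kb inside the window's edge, so the edge decides whether it counts as HOXD or flank. With the window narrowed by 10 kb at each edge and these edges counted as flank, HOXD held 33 summits, its flanks 9, and the ratio was 14.4 (6.73 to 34.2). With the edges counted on neither side it was 32.4 (11.5 to 126). About 13 kb from the edge, chr2:176957002-176958547 (1546 bp) held summits at 10.4 (126 fragments) and 11.3 (157 fragments) and another at 4.78. The other intervals with at least 3 summits were chr2:176986976-176988239 (1264 bp, 4 summits, folds of 3.24 to 7.20) and chr2:177052884-177053879 (996 bp, 3 summits, folds of 3.11 to 7.24). The latter was the last interval before the anterior edge.

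The HOXD summits leaned towards the group 13 end of the window. The sections used for this are equal in length and were not matched for their number of genes. Counted in 4 equal sections of 30.5 kb from the group 13 edge, the window held 14, 14, 4 and 6 summits, and the intervals covered 17.0%, 12.8%, 4.89% and 6.03% of the sections. The median folds of the sections were 6.09, 5.14, 8.42 and 4.40, where the 8.42 comes from 4 summits. That section also held the second strongest site, so the strong sites were not confined to the dense part.

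HOXC had many intervals, each short and of moderate height. Its 5 highest summits were at 54332445 (fold 7.45, 103 fragments), 54378798 (7.10, 87 fragments), 54403176 (6.65, 93 fragments), 54389501 (6.52, 90 fragments) and 54411850 (6.10, 141 fragments) of chromosome 12. These values lay close together, and the other 19 summits had folds of 2.66 to 5.34. No HOXC interval had more than 2 summits, where 7.80% of the list's intervals had 3 or more. Of the 21 HOXC intervals, 18 had 1 summit (85.7%), not far from the 76.4% of the list. The interval of the highest fold, chr12:54332242-54332762 (521 bp), was also the one nearest the group 13 edge. The widest was chr12:54402701-54403375 (675 bp, 2 summits).

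Many HOXC intervals lay close to their neighbours. The share of gaps under 1 kb in the whole list was not counted. Gaps shorten as intervals per kb rise, so those below do not separate crowding from density. Of the 20 gaps between neighbouring HOXC intervals, 10 were under 1 kb and the median gap was 1.67 kb. In HOXD, 6 of 19 gaps were under 1 kb and the median was 3.69 kb, and in HOXA and HOXB none of 7 and none of 6 were, with medians of 9.64 and 13.9 kb. The 4 HOXC sections of 34.5 kb from the group 13 edge held 3, 4, 11 and 6 summits. The posterior side included the longest stretch of the window without an interval, chr12:54349037-54378686 (29.7 kb). HOXC and HOXD thus differed in where along their windows the summits lay. Most of the HOXD summits were in the posterior sections and most of the HOXC summits in the anterior ones, by length and not by gene.

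The 9 HOXA summits formed a chain of isolated sites, most of them past the middle of the window as counted from the group 13 edge. The highest was at 27190604 of chromosome 7, with a fold of 9.74, a −log10 q-value of 49.2 and 122 fragments over a background of 7.14. The summit at 27183515 had a fold of 7.10 and 87 fragments. The summit at 27176212 had a fold of 5.88 from only 23 fragments, over a background of 1.68, the lowest of all 78 HOX summits. This run of neighbours on the anterior side thus held the 3 highest HOXA values. The widest interval, chr7:27200396-27200825 (430 bp), was the HOXA interval with the most summits, 4.21 at 27200717 and 2.21 at 27200495. The others were at 27219553 (3.86), 27170605 (3.62), 27275170 (2.82) and 27239829 (2.68). The sections of 45 kb held 1, 2, 6 and 0 summits, and the 50.5 kb at the anterior edge (chr7:27120001-27170524) had no interval. Beyond the window, the nearest interval was 218 kb from the outermost HOXA interval on the group 13 side and 266 kb from it on the anterior side. The nearest flank summit, at 27493806, had a fold of 3.81 and 40 fragments.

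All 7 HOXB summits were single in their intervals, and 76.4% of the list's intervals likewise held 1 summit. The highest were at 46714059 (fold 7.09, 109 fragments), 46680107 (5.80, 134 fragments) and 46671418 (5.48, 101 fragments) of chromosome 17. The other 4, at 46690480, 46755948, 46696107 and 46802031, had folds of 3.29 to 3.41 and 41 to 87 fragments. No HOXB fold lay between 3.41 and 5.48, but 7 summits are too few to define separate sets of sites. The widest interval was chr17:46755811-46756093 (283 bp). The sections of 55 kb from the group 13 edge held 1, 2, 4 and 0 summits, and the 75.3 kb at the anterior edge (chr17:46596001-46671315) had no interval. Of the 13 summits in the flanks of HOXB, 1 exceeded the window's highest fold, with 10.8 (133 fragments) at 46534802 on the anterior side. The strongest flank summit of HOXC was at 54473354 (9.05, 69 fragments) and that of HOXD at 177134158 of chromosome 2 (10.2, 110 fragments), both on the anterior side.

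Fold enrichment has the local background in its denominator, so the ChIP and input values recovered from the deposited values are given side by side. ChIP fragments over the summit had medians of 87 in HOXD, 87 in HOXB, 63 in HOXC and 60 in HOXA, against 63 in the list. The highest were 226, 134, 141 and 122 in the same order. The HOXB summits thus had as many ChIP fragments at the median as the HOXD summits. The local input background had medians of 11 input fragments in HOXB, 9.24 in HOXA, 8.68 in HOXD and 8.0 in HOXC, against 7.56 in the list. It ranged from 7 to 16 in HOXB, 1.68 to 18 in HOXA, 3.29 to 15 in HOXD and 4.87 to 16 in HOXC, so the 4 windows overlapped in input. None of the 78 summits had its background at the genome-wide level of 1.61, where 4533 of the 64657 summits of the list had theirs.

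The median fold was higher in HOXD than in HOXC at like input. Where the background was 4 to 8 input fragments, the median fold was 7.10 in HOXA (3 summits), 6.48 in HOXD (14), 4.21 in HOXC (11) and 3.41 at the 1 HOXB summit, against 5.20 in the list. At 8 and over it was 5.37 in HOXD (23 summits), 4.41 in HOXB (6), 4.12 in HOXC (13) and 2.82 in HOXA (5), against 4.79 in the list. In both ranges the HOXD median was thus above and the HOXC median below that of the list. How much of the difference in fold between the clusters comes from input was not tested further.

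**Figure D4:**
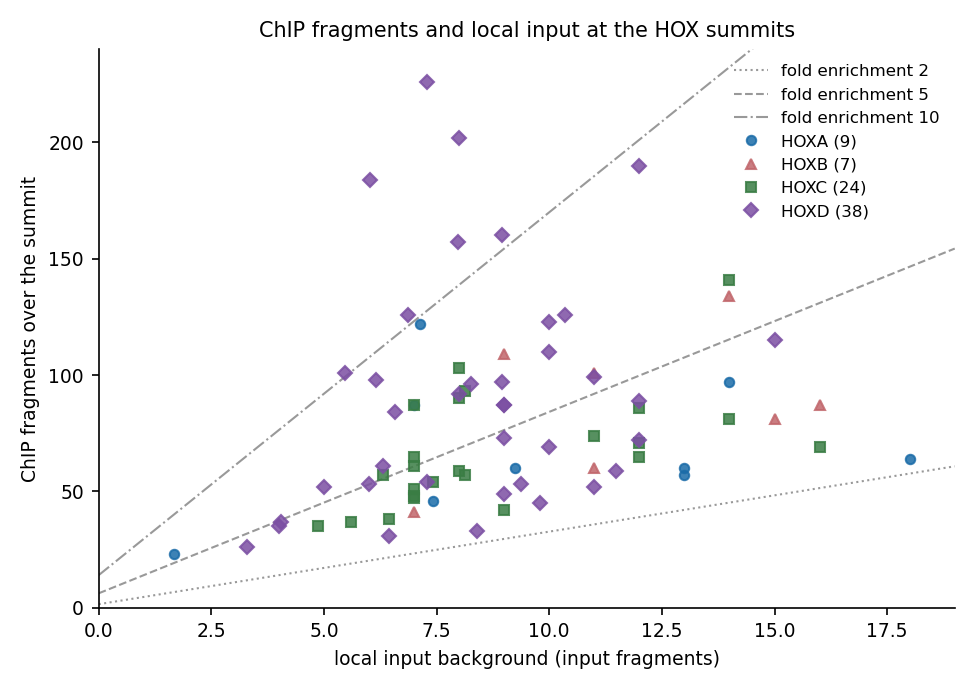
Each point is 1 of the 78 HOX summits, with its local input background in input fragments (horizontal axis) and the ChIP fragments over the summit (vertical axis); lines mark equal fold enrichment of 2, 5 and 10. The 7 points above the 10-fold line are all HOXD, at inputs of 5.46 to 8.96, and the HOXB and HOXA points with the highest input lie between the 2-fold and 5-fold lines.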

How the data were processed

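Values start from the peak list the authors deposited. Build hg19 and the tools MACS2 2.1.1, STAR 2.5.1b, deepTools 2.2.4, SAMtools 1.3.1 and Picard are named in the submitters' processing notes. Not given in the sources used here: settings, duplicate handling, the combining of the 2 ChIP samples and read depth. The deposited fold enrichment is a ratio of ChIP to local background at the summit, beside which the authors deposited a −log10 p-value and its −log10 q-value. They are the authors' values and only describe, rank or filter summits within the list.

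Summits were placed by start plus offset and are printed counted from 1. ChIP fragments and input background were solved from fold and −log10 p under the Poisson relations of MACS2, with 1 scale (0.641) for the list. Fold was taken as the fragments times this scale plus 1, divided by the background plus 1. The solution gave a value within 0.0005 of the deposited −log10 p at 64657 of 64657 summits, with 24 that had 2 solutions, and was tested on simulated data. Densities carry exact Poisson intervals, density ratios exact conditional binomial ones, shares Clopper-Pearson ones and medians order-statistic ones, all at 95%. Fragments without molecular identifiers are not independent molecules. Chromosome lengths run to the last peak. No p-value was computed.

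Summits named are the 5 of highest fold per window, the highest in its flanks, the widest interval, the interval with the most summits and the longest free stretch. Others were named to account for all members. All HOX promoter windows with CACGTG are printed. Members, windows and lists were chosen with earlier results of these data known. Alternatives changed the thresholds, the flanks, the window edges, the unit counted and the motif. Python 3.11.15, numpy 2.4.6, pandas 2.3.3, scipy 1.17.1 and matplotlib 3.10.9 were used.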

Additional observations from a re-analysis of the deposited data

How the results depend on the processing

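Of 106 alternative values, 100 kept within the counting interval of the value reported or, for the share of a window covered, which has no interval, within 1.5 times of it. Wide intervals make this easy to meet, as for the HOXA ratio (2.77 to 877), and settings without a value are not among the 106. A kept value can still change the reading. HOXD over HOXC with 1 count per interval (1.08, 0.554 to 2.09) and HOXC over its flanks at 5-fold (1.93, 0.685 to 5.14) had intervals that included 1. The single flanks, the edges counted as flank, the count of promoters per gene, the clusters left out in turn and the other settings of the ratios between clusters were chosen after seeing the data. With the anterior flank alone the HOXB ratio was 3.18, and with the group 13 flank alone the HOXC ratio was 11.6. The ratio over all 4 clusters was 7.17 without HOXB and 2.48 without HOXD. At a −log10 q-value of at least 10, the intervals covered 0.632% of the HOXA window. Any CANNTG was in 73.1% of the HOX promoter windows. Over all settings that gave a value, the ratio to the flanks ran from 14.4 to 62.3 for HOXD, 1.83 to 11.6 for HOXC, 0.579 to 3.18 for HOXB and 10 to 22.5 for HOXA. For HOXA, no ratio could be given at a −log10 q-value of at least 10 (4 summits against 0), a fold of at least 5 (3 against 0), flanks of 100 kb, edges counted as flank or the anterior flank alone (9 against 0), since the flanks were empty. The comparison of sensitive with resistant cells was not run, because the lists were identical. No paired analysis was possible because both ChIP samples share 1 list. Few summits in HOXA, HOXB and their flanks limit the precision there.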
